A study of Mus musculus with 4 samples.

Results

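The presynaptic vesicle release machinery is the set of proteins that fill, dock, fuse and recycle neurotransmitter vesicles in nerve terminals. It was followed here through 49 genes chosen by symbol, all of which had a row in the table of 48178 genes and all of which passed the filter on low values. They encode 11 synaptotagmins, 12 SNARE proteins, 5 SNARE regulators and recycling factors, 12 vesicle proteins, 7 proteins of the active zone and 2 glutamate transporters. From general knowledge 33 of them were assigned to a neuronal class, 10 to a class taken as more broadly used, and 6 to neither. The broadly used class includes Unc13b, although it is also listed with the active zone.

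RNA-seq had been carried out on neurospheres, floating clusters of neural progenitor cells and their progeny, from the hippocampus of C57BL/6 mice at postnatal day 0. The medium held EGF at 20 ng/ml and FGF-2 at 20 ng/ml, and spheres were collected on culture day 7. Control cultures (hGFAPCre+, ROSA26FGF13A +/+; 2 libraries) and FGF13Aoe cultures (hGFAPCre+, ROSA26FGF13A LSL/+; 2 libraries) were both labelled as carrying hGFAPCre, a Cre recombinase under a human GFAP promoter, known to act in the progenitors of the developing brain and in astrocytes. The FGF13Aoe cultures in addition carried an FGF13A cassette behind a loxP-flanked stop at 1 ROSA26 allele. The cells of 1 mouse had been plated into 2 wells, and nothing in the labels ties the 2 libraries of a group to different animals; the p-values therefore cover only the spread between libraries. For FGF13Aoe that spread may be technical, while the control libraries differed in Y-linked genes, as given with the library values. The spread was not smaller for FGF13Aoe: the SD of log2 counts between replicates was 0.414, against 0.306 for control.

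Vesicles fuse when a SNARE protein of the vesicle (VAMP) zips together with SNARE proteins of the plasma membrane (syntaxin and SNAP-25), and synaptotagmin makes that step depend on calcium. Complexins and tomosyn regulate the SNARE complex, NSF with its SNAP adaptors takes it apart, and scaffold proteins of the active zone hold vesicles at the release site. Many of these proteins have paralogs that serve membrane traffic in all cells, so a preparation of progenitors and glia holds a related but different set of transcripts.

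The libraries held 9724413 to 14092685 gene-assigned reads. Levels are normalized read counts, that is, reads divided by a size factor per library; where pairs of values are set against each other, control replicates 1 and 2 come first and FGF13Aoe replicates 1 and 2 second. Fgf13 itself stood at 772 and 769 against 5410 and 4447. The control libraries were not alike in every respect: for Ddx3y and Eif2s3y, which lie on the Y chromosome, counts were 4.95 and 7.93 in control replicate 1, 146 and 274 in control replicate 2, and at most 1.21 in FGF13Aoe. Xist, which is transcribed from the inactive X chromosome of female cells, had 18658 and 12206 against 30159 and 31301 (log2 change 1.03, limma adjusted p = 0.0284). Prm1, a sperm chromatin protein gene, had 1040 and 722 against 9.67 and 10.1. By the Y-linked counts the libraries did not hold the same mix of sexes, and that mix differed with group. Whether both groups carried the same Cre transgene, as the labels have it, was not tested. The part of sex or of the transgene in the results was not tested either. Of 15204 genes tested, 19.1% were called lower and 16.2% higher in FGF13Aoe (limma, adjusted p under 0.05), with a median log2 change of -0.01.

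Neuronal presynaptic genes were lower in FGF13Aoe neurospheres, and most of their broadly used relatives did not pass the test. Of the 49 genes 33 fell and 3 rose, beside backgrounds of 19.1% lower and 16.2% higher. Falls of 4-fold or more numbered 14 among the 49, against 5.47% of all genes tested. In the neuronal class 28 of 33 fell and 2 rose, with a median log2 change of -1.80. In the broadly used class 2 of 10 fell and 1 rose, with a median of 0.08. Of the 6 genes in neither class 3 fell and 0 rose by limma, with 0 higher at an unadjusted p under 0.05, by edgeR or by DESeq2 on 3 libraries; the median was -0.54. In a bulk sample, fewer neurons and less RNA per neuron cannot be told apart. Without control replicate 1, 24 of the 49 fell and 1 rose (background 5.7% lower and 3.62% higher). Without control replicate 2, 27 fell and 2 rose (background 6.41% and 5.06%). Without FGF13Aoe replicate 1 the 49 gave 32 lower and 3 higher (background 20.2% and 15%), and without FGF13Aoe replicate 2 they gave 33 and 2 (22.7% and 18.6%). Backgrounds under other tests of the same genes were 7.14% lower and 3.53% higher by edgeR and 6.76% and 5.04% by DESeq2, both on reads of 3 libraries, 14.8% and 12.4% by limma with no intensity trend, and 17.4% and 13.5% with a replicate block.

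**Figure D1:**
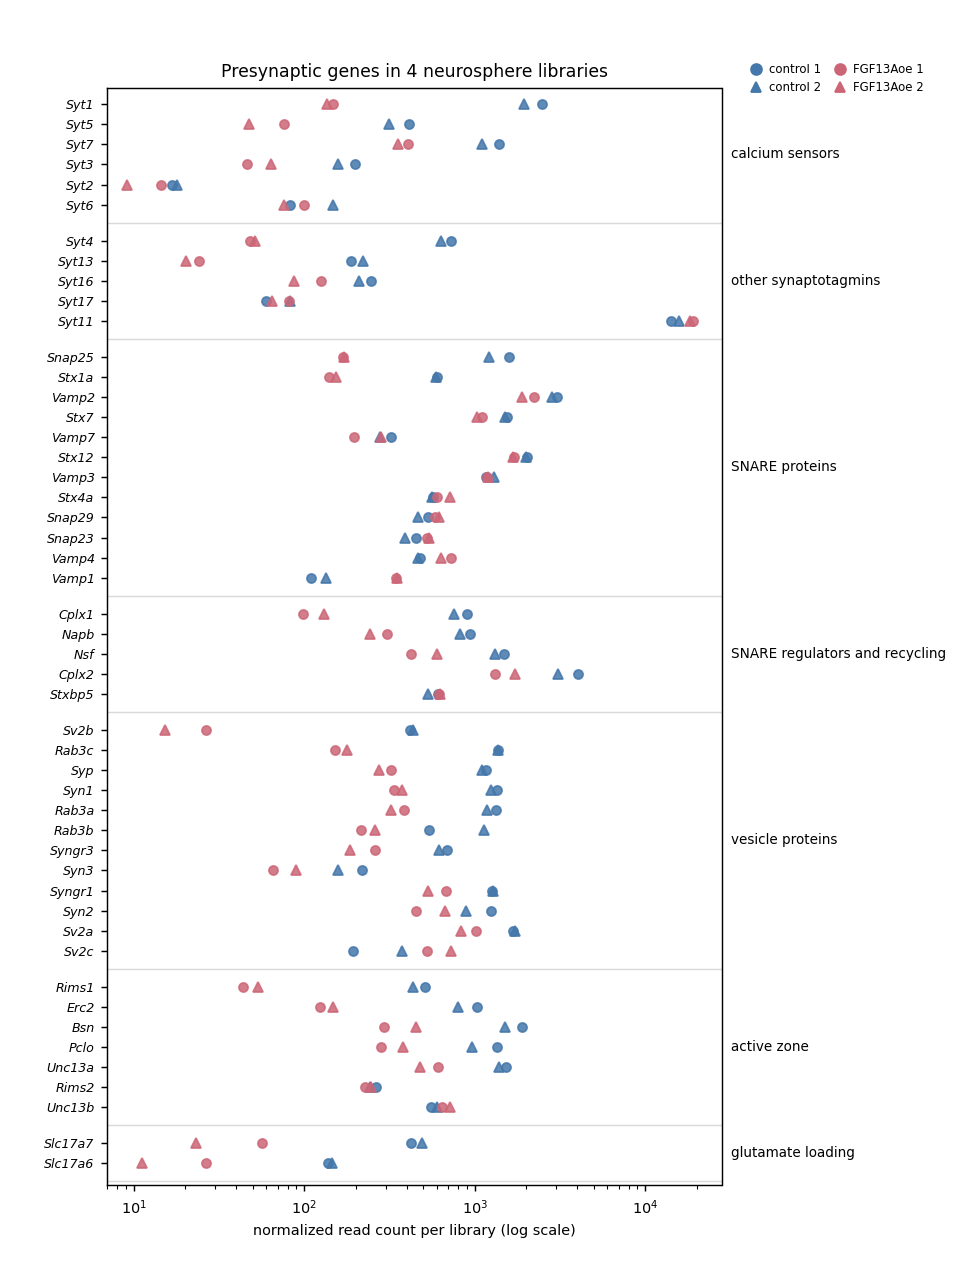
Normalized read count (log axis) of each of the 49 presynaptic genes in 2 control libraries (blue) and 2 FGF13Aoe libraries (red), circles for replicate 1 and triangles for replicate 2, grouped by role. Both FGF13Aoe points lie left of both control points in 35 genes, right of them in 9, and the groups overlap in 5.

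Both FGF13Aoe libraries lay below both control libraries in 35 of the 49 genes and above them in 9, where the same held for 37.5% and 36.2% of all genes tested. The plot of counts by library shows that a gap of this kind was wide for genes such as Syt1 and Sv2b and narrow for Stx12 or Syt2. For that reason the limma call, which weighs the gap against the spread, was used for every statement on change.

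Syt1, the fast calcium sensor of synaptic vesicles (ENSMUSG00000035864, GRCm38 chromosome 10, 108497650 to 109010982), had normalized counts of 2474 and 1940 against 147 and 137. Both FGF13Aoe libraries were far below both control libraries. By limma, with n = 2 per group, Syt1 fell by 3.94 on the log2 scale (SE 0.16, adjusted p = 0.00111), which is a 15.3-fold lower level. Syt5, another calcium-binding synaptotagmin, had 411 and 315 against 76.1 and 47.6 (log2 change -2.56 ± 0.29, adjusted p = 0.00333). Syt7, a slow, high-affinity sensor that also acts in lysosome exocytosis, had 1380 and 1109 against 406 and 353 (-1.71 ± 0.16, adjusted p = 0.00206). Syt3 had 199 and 159 against 45.9 and 63.8 (-1.70 ± 0.27, adjusted p = 0.008), a call that was lost without control replicate 1 (adjusted p = 0.076).

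The other calcium sensors were not called. Syt2, the fast sensor of hindbrain and motor synapses, had 16.8 and 17.9 against 14.5 and 9.11 (log2 change -0.55, adjusted p = 0.348). Syt6 had 82.2 and 147 against 99.1 and 75.9, so the groups overlapped (adjusted p = 0.468). Neither passed the test, and without control replicate 2 the log2 change of Syt6 was 0.076.

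Of the 5 synaptotagmins listed apart from the calcium sensors (Syt4, Syt11, Syt13, Syt16 and Syt17) 3 fell, beside a background of 19.1% lower. Syt4, found on dense-core vesicles and in the Golgi of neurons, had 725 and 630 against 48.3 and 51.6 (log2 change -3.73 ± 0.18, adjusted p = 0.00111). A predicted gene on the other strand covers 14.5% of the exonic bases of Syt4, and whether counting respected strand was not stated. Syt13 had 187 and 221 against 24.2 and 20.2 (-3.15 ± 0.26, adjusted p = 0.00171). Syt16 fell from 246 and 211 to 126 and 87.1 (-1.11 ± 0.25, adjusted p = 0.0203), and this call was lost without either control library (adjusted p = 0.145 and 0.0907).

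Syt11, a synaptotagmin that does not bind calcium and is expressed in neurons and glia, was the most abundant of the 49 genes per kilobase of exon in both groups. Its normalized counts were 14141 and 15830 against 19086 and 18285. The FGF13Aoe libraries were the higher pair, but the log2 change of 0.32 ± 0.17 did not pass (adjusted p = 0.197). Syt17 had 59.4 and 83.0 against 81.0 and 64.8, with overlapping groups (adjusted p = 0.918) and a direction that depended on the setting. Scaled to exon length and summed over the 11 synaptotagmins, Syt11 made up 72.9% and 78.1% in control and 95.2% and 95.7% in FGF13Aoe. Syt1 made up 7.96% and 5.98% in control and 0.459% and 0.446% in FGF13Aoe.

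Of the SNARE proteins of the neuronal plasma membrane, both fell. Snap25 (ENSMUSG00000027273, chromosome 2, 136713453 to 136782428) had normalized counts of 1584 and 1213 against 168 and 172 (log2 change -3.02 ± 0.17, adjusted p = 0.00111). Stx1a, syntaxin-1A, had 601 and 592 against 140 and 153 (-2.02 ± 0.15, adjusted p = 0.00134). Within each group the replicates of Stx1a and those of Snap25 in FGF13Aoe lay close together, and the groups were far apart.

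The vesicle SNAREs of neurons did not move together. Vamp2, the main synaptobrevin of the forebrain, had 3043 and 2856 against 2221 and 1892. This was a fall of 0.52 on the log2 scale (SE 0.13, adjusted p = 0.0288), and the call was lost without either control library (adjusted p = 0.21 and 0.149). Vamp1, synaptobrevin-1, which serves motor and brainstem synapses (chromosome 6, 125215551 to 125245964), went the other way. Its counts were 110 and 135 against 346 and 349, a rise of 1.50 ± 0.19 on the log2 scale (adjusted p = 0.0041). Per kilobase of exon, Vamp1 stayed well below Vamp2, at means of 12.1 against 774 in control and 34.2 against 540 in FGF13Aoe.

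Most SNARE proteins used by all cells did not pass the test. Snap23, the widely expressed relative of SNAP-25 at the plasma membrane, had 453 and 390 against 527 and 536 (log2 change 0.34 ± 0.14, adjusted p = 0.11). Snap29, which acts in autophagosome and endosome fusion, had 533 and 466 against 581 and 614 (0.26 ± 0.14, adjusted p = 0.18). Stx4a, a plasma membrane syntaxin of non-neuronal cells, had 569 and 565 against 597 and 714 (0.20 ± 0.14, adjusted p = 0.295). In these genes the FGF13Aoe libraries were the higher pair without a call. Vamp3, cellubrevin of recycling endosomes, had 1167 and 1289 against 1180 and 1193, with overlapping groups (log2 change -0.05 ± 0.12, adjusted p = 0.77). Without control replicate 2 its log2 change was 0.024. Vamp7, of late endosomes and lysosomes, had 325 and 278 against 197 and 280 and did not pass (adjusted p = 0.252).

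Among endosomal SNAREs, Vamp4, of the trans-Golgi network, had 477 and 465 against 723 and 636, a rise of 0.52 ± 0.13 on the log2 scale (adjusted p = 0.0293). Stx7, of late endosomes, fell from 1540 and 1511 to 1103 and 1036 (-0.51 ± 0.11, adjusted p = 0.0192). Both calls were lost without either control library, with adjusted p of 0.172 and 0.189 for Vamp4 and of 0.166 and 0.145 for Stx7. Stx12, of early endosomes, had 2027 and 1990 against 1693 and 1670 and did not pass (log2 change -0.26 ± 0.11, adjusted p = 0.115).

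**Figure D2:**
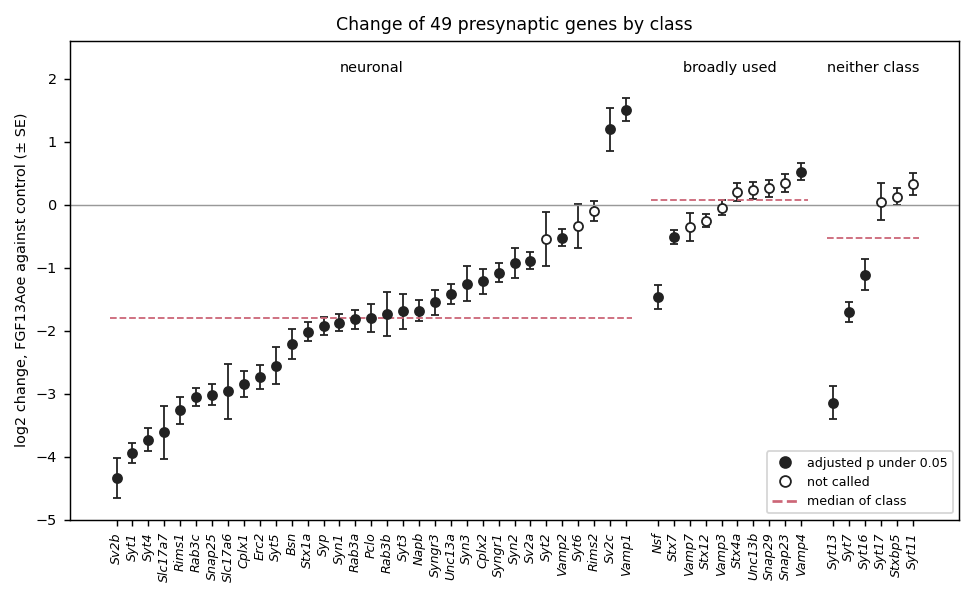
Log2 change of each gene (FGF13Aoe against control, limma; bars are ± SE, n = 2 per group), ordered within the neuronal class, the broadly used class and the genes of neither class; filled points have an adjusted p under 0.05 and dashed lines are class medians. The medians are -1.80, 0.08 and -0.54, and the only filled points above 0 are Sv2c, Vamp1 and Vamp4.

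Regulators of the SNARE complex fell, with Stxbp5 not called. Cplx1, a complexin that clamps and activates SNARE complexes, had 897 and 751 against 97.9 and 131 (log2 change -2.85 ± 0.20, adjusted p = 0.00125). Cplx2, with a higher level per kilobase of exon in both groups, fell from 4031 and 3060 to 1311 and 1733 (-1.22 ± 0.20, adjusted p = 0.00837), and did not pass without control replicate 1 (-1.02, adjusted p = 0.062). Napb, the brain form of the SNAP adaptor that recruits NSF, had 934 and 822 against 304 and 242 (-1.69 ± 0.17, adjusted p = 0.00234). Nsf, the ATPase that separates spent SNARE complexes in all cells, was the broadly used gene with the largest change. It had 1493 and 1311 against 425 and 603 (-1.46 ± 0.19, adjusted p = 0.00489), and this call was kept without any 1 library. Stxbp5, tomosyn, had 609 and 532 against 619 and 623 (0.13 ± 0.13, adjusted p = 0.485).

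Of 12 genes for proteins of the vesicle itself 11 fell and 1 rose, beside backgrounds of 19.1% lower and 16.2% higher. Sv2b, a vesicle glycoprotein of the forebrain (chromosome 7, 75114894 to 75309262), had the lowest log2 change of the 49 genes. Its counts were 417 and 434 against 26.6 and 15.2 (log2 change -4.34 ± 0.31, adjusted p = 0.00128), a 20.2-fold lower level. Sv2a, the widespread form and target of the drug levetiracetam, fell by 0.89 on the log2 scale, from 1672 and 1726 to 1012 and 831 (SE 0.14, adjusted p = 0.00725). That call was narrowly lost without control replicate 1 or 2 (adjusted p = 0.0631 and 0.0638).

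Sv2c, the form known from basal ganglia (chromosome 13, 95954594 to 96132577), rose instead. Its counts were 192 and 375 against 523 and 726 (log2 change 1.20 ± 0.34, adjusted p = 0.0416). The control libraries of this gene differed nearly as much as the groups, and the call was lost without control replicate 1 (adjusted p = 0.155, log2 change 0.71), and the same held when FGF13Aoe replicate 2 was left out (adjusted p = 0.12, log2 change 0.96). The 3 SV2 paralogs thus had log2 changes of -4.34, -0.89 and 1.20 in the same libraries.

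Of the Rab3 GTPases, which tether vesicles to the active zone, the 3 forms among the 49 genes fell. Rab3c had 1372 and 1365 against 151 and 178 (log2 change -3.05 ± 0.14, adjusted p = 0.00111). Rab3a, the most abundant form per kilobase of exon in both groups, had 1334 and 1175 against 387 and 323 (-1.82 ± 0.15, adjusted p = 0.00161). Rab3b had 543 and 1139 in control, unequal between the replicates, and 214 and 260 in FGF13Aoe (-1.73 ± 0.35, adjusted p = 0.0152); of its exonic bases 9.0% overlap a gene on the opposite strand. Rab3d, the form known from secretory cells and taken from the other pathway genes, had 223 and 208 against 294 and 178, with overlapping groups and no call (0.09 ± 0.27, adjusted p = 0.819).

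Synapsins, which hold vesicles in the reserve pool, fell too. Syn1 had 1356 and 1240 against 335 and 372 (log2 change -1.87 ± 0.13, adjusted p = 0.00121). Syn2 had 1238 and 894 against 456 and 671 (-0.93 ± 0.24, adjusted p = 0.0326). It did not pass without control replicate 1 (adjusted p = 0.181), control replicate 2 (0.0583) or FGF13Aoe replicate 1 (0.0698). Syn3 had 218 and 157 against 65.2 and 90.1 (-1.26 ± 0.28, adjusted p = 0.02). It did not pass without control replicate 1 or 2 (adjusted p = 0.151 and 0.0623), and 14.1% of its exonic bases overlap Timp3 on the opposite strand.

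Synaptophysin and synaptogyrins are tetraspan proteins of the vesicle membrane. Syp had 1166 and 1101 against 323 and 274 (log2 change -1.93 ± 0.14, adjusted p = 0.00128), with a predicted gene on the other strand over 16.8% of its exonic bases. Syngr3 had 685 and 614 against 261 and 186 (-1.55 ± 0.20, adjusted p = 0.00465). Syngr1 had 1269 and 1284 against 681 and 531 (-1.08 ± 0.15, adjusted p = 0.00567). The groups were apart in these genes, and without control replicate 1 Syngr1 did not pass (adjusted p = 0.0519).

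Active zone genes fell by up to 9.60-fold. Rims1, a scaffold that docks vesicles and gathers calcium channels, had 511 and 436 against 43.5 and 53.6 (log2 change -3.26 ± 0.21, adjusted p = 0.00121). The paralog Rims2 had 264 and 244 against 227 and 246, with overlapping groups and no call (-0.10 ± 0.16, adjusted p = 0.649). Erc2, a scaffold that binds RIM, had 1029 and 793 against 124 and 147 (-2.73 ± 0.19, adjusted p = 0.00121).

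The giant scaffold genes Bsn and Pclo, which encode bassoon and piccolo, both fell. Bsn had 1905 and 1512 against 295 and 450 (log2 change -2.22 ± 0.23, adjusted p = 0.00273). Pclo had 1349 and 968 against 283 and 379 (-1.80 ± 0.22, adjusted p = 0.00407). Unc13a, Munc13-1, which primes vesicles for release, had 1531 and 1381 against 611 and 479 (-1.42 ± 0.16, adjusted p = 0.00312). Unc13b, Munc13-2, had 557 and 604 against 639 and 719 and did not pass (0.22 ± 0.13, adjusted p = 0.228).

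Vesicular glutamate transporters load vesicles with transmitter. Slc17a7, VGLUT1 of cortical and hippocampal neurons, had 425 and 494 against 56.8 and 23.3 (log2 change -3.62 ± 0.42, adjusted p = 0.0035). Slc17a6, VGLUT2, had 139 and 145 against 26.6 and 11.1 (-2.96 ± 0.44, adjusted p = 0.00642). In both genes FGF13Aoe replicate 2 was well below replicate 1, and both libraries were far below control. Among the other pathway genes, the GABA and glycine transporter Slc32a1 fell as well, from 211 and 164 to 12.1 and 15.2 (-3.68 ± 0.30, adjusted p = 0.00161), with 24.9% of its exonic bases overlapping a predicted gene.

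A ratio of paralogs within a library does not depend on how libraries were scaled. The log2 ratio of Snap25 to Snap23 was 1.80 and 1.64 in control and -1.64 and -1.63 in FGF13Aoe, so the order of the normalized counts turned over. For Stx1a to Stx4a it was 0.08 and 0.07 in control and -2.08 and -2.22 in FGF13Aoe. For Unc13a to Unc13b it was 1.46 and 1.19 against -0.06 and -0.58. The smallest shift among the 7 pairs was that of Vamp2 to Vamp3, from 1.38 and 1.15 to 0.91 and 0.66.

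The other pairs were made with genes outside the 49. Syp to Sypl, a widely expressed synaptophysin-like gene, shifted by -1.83 on the log2 scale. Erc2 to Erc1 shifted by -2.31 and Napb to Napa by -1.62. In all 7 pairs both FGF13Aoe libraries lay below both control libraries. The two-sided exact permutation test gave p = 0.333 for each pair, also after adjustment over the 7, which is the smallest value that 2 against 2 libraries allow.

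**Figure D3:**
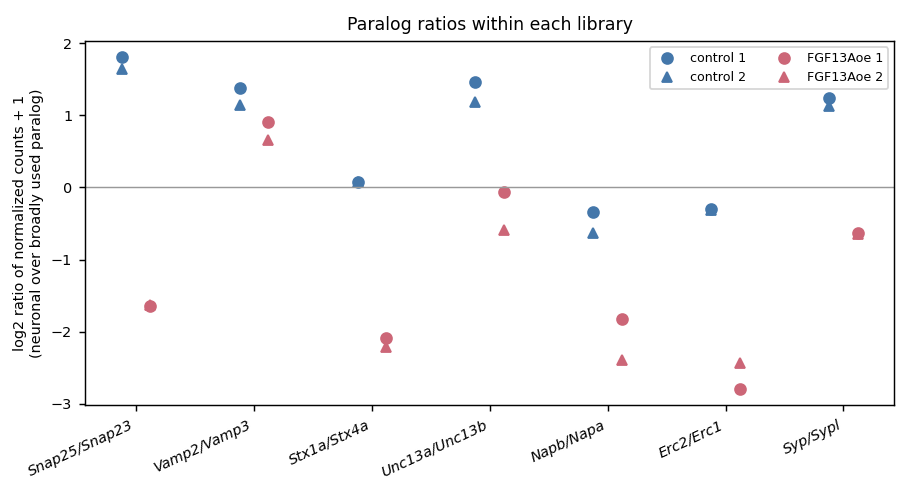
Log2 ratio of a neuronal gene to its broadly used paralog (normalized counts + 1) within each of 4 libraries, for 7 pairs; blue is control and red FGF13Aoe, circles replicate 1 and triangles replicate 2. Red points lie below blue points in each pair, with mean differences of -3.36 for Snap25/Snap23 and -0.48 for Vamp2/Vamp3.

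Levels can be compared between genes only per length, here as the group mean of the normalized count per kilobase of merged exons. In control, Syt11 (2879), Vamp2 (774), Cplx2 (720), Stx12 (630.0) and Rab3a (564) were the highest of the 49 genes. In FGF13Aoe the order was Syt11 (3590), Vamp2 (540), Stx12 (527), Vamp3 (411) and Cplx2 (309). Replicates of Stx12 and Vamp3 differed by less than those of Cplx2 in both groups.

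Many genes changed rank, among them Syt1 and the plasma membrane SNAREs. Syt4 went from rank 19 to rank 41, and Sv2c from rank 40 to rank 19. Syt1 went from rank 13 of 49 in control, at 265 per kilobase, to rank 35 in FGF13Aoe, at 17.0. Snap25 went from rank 18 (206) to rank 31 (24.7 and 25.3 in the libraries), while Snap23 went from rank 31 (98.1) to rank 13 (124). Stx4a moved from rank 14 to rank 6 and Stx1a from rank 16 to rank 22. Merged exons count all annotated transcripts, so a gene with a long, little used exon has a level that is too low.

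**Figure D4:**
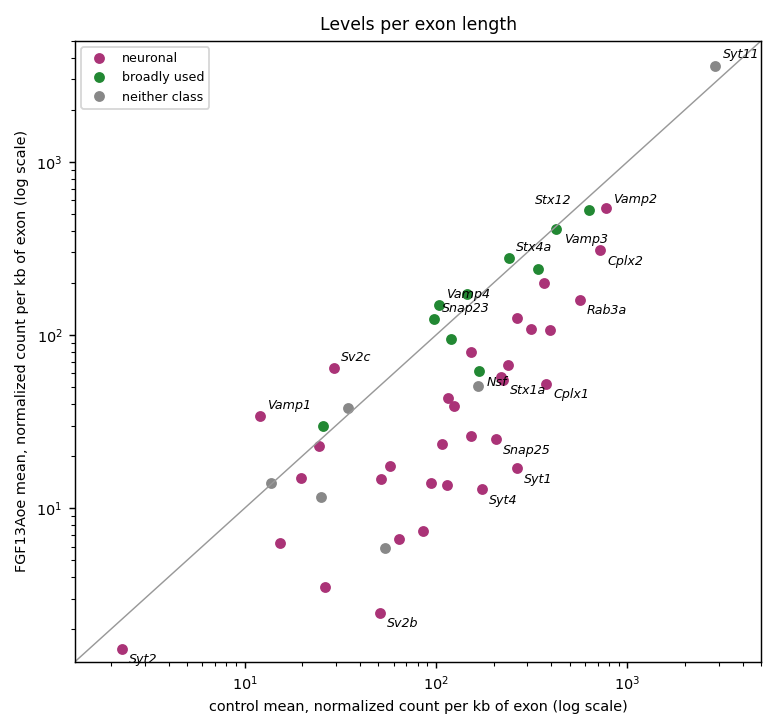
Group mean of the normalized count per kilobase of merged exon in FGF13Aoe against control for the 49 genes (log axes; grey line, equal levels), coloured by class. Syt11 stands highest at 2879 and 3590, most neuronal genes lie below the line, and Vamp1 and Sv2c lie above it.

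For 37 of the 49 genes RefSeq start-site windows on GRCm38.p6 were at hand, 49 windows of 300 bases in all, from 250 bases before the start to 50 after it. They were searched on both strands for short motifs. TTCAGCACC, the left part of the RE1 site that binds REST, a repressor of neuronal genes in non-neuronal cells, occurred in the windows of Syn1 and Unc13a, and in 0.371% of all 32851 windows. TGACGTCA, the full CRE bound by CREB-family factors, occurred in 1 member window, that of Syn1, and in 1.79% of all. GGGCGG, a GC box bound by Sp1-family factors, occurred in 33 of the 49 member windows and in 35.7% of all. CAGCTG, an E-box, occurred in 17 of 49 and in 16.3% of all.

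The windows of Syn1 and Unc13a, which fell, Vamp1, which rose, and Stx4a, which was not called, are printed to show these letters in genes that differed in direction. Capitals mark TTCAGCACC, TGACGTCA and GGGCGG on either strand, and in Stx4a a pair of GC boxes overlap. A match is a description of the sequence and not a binding site. The windows are chrX:20920869-20921168 (minus strand) for Syn1, chr8:71671708-71672007 (minus) for Unc13a, chr6:125215331-125215630 (plus) for Vamp1 and chr7:127841558-127841857 (plus) for Stx4a.
Syn1: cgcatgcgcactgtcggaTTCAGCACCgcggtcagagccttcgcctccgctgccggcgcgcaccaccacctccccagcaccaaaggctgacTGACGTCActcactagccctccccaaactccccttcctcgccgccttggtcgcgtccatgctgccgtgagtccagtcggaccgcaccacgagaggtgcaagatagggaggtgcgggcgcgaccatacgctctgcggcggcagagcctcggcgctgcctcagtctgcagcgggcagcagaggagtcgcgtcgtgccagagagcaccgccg
Unc13a: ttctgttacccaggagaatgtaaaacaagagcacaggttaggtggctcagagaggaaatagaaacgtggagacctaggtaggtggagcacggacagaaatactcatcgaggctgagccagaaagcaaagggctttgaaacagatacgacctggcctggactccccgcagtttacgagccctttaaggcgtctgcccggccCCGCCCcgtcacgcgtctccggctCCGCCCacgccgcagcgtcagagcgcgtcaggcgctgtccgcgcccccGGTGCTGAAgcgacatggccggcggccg
Vamp1: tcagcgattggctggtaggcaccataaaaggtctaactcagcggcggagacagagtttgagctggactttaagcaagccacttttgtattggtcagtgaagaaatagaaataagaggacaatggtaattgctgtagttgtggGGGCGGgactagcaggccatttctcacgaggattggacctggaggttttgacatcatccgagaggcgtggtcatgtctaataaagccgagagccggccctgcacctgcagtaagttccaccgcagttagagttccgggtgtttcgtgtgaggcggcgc
Stx4a: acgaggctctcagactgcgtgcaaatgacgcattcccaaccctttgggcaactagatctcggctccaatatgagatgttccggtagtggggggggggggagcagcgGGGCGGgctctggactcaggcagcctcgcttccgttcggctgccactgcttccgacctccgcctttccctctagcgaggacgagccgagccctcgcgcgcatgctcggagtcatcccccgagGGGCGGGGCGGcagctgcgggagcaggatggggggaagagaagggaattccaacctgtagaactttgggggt
In Syn1 the RE1 part begins 232 bases before the start site and the CRE 159 bases before it. In Unc13a the RE1 part lies 23 bases after the start, and GC boxes lie at 50 and 26 bases before it. In Vamp1 the single capital run begins 108 bases before the start. Of the shorter motifs, TGACG occurred in 10 member windows (20.8% of all windows), GGACAG in 13 (22.2%), CAGATG in 3 (17.2%) and TATAAA in 3 (13.6%). Windows of 1 gene can overlap, so their number is not a number of independent promoters.

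Other genes of vesicle release and recycling were taken as a list of 107 symbols, of which 100 were tested; 44 fell and 9 rose, where 19.1% of all genes fell and 16.2% rose, so the count of rises was below the background. In its vesicle and active zone part 24 of 42 tested genes fell and 2 rose, with a median log2 change of -0.92. Doc2b, a calcium sensor of spontaneous release, had 256 and 203 against 9.67 and 12.2 (-4.27 ± 0.30, adjusted p = 0.00121). Svop, Ppfia2, Rims4 and Rph3a had log2 changes of -3.43, -3.28, -3.15 and -3.11, and Cadps, which primes dense-core vesicles, had -1.91. Of the exonic bases of Ppfia2 24.5% overlap Acss3 on the opposite strand.

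Among other SNARE and trafficking genes 8 of 27 fell and 4 rose, with a median of -0.12, beside backgrounds of 19.1% lower and 16.2% higher, and the rises were near that background. The 4 that rose were Stx2, Stxbp3, Stx16 and Stx5a, which serve the plasma membrane and the Golgi, with log2 changes of 1.17, 0.76, 0.63 and 0.61. Among genes of vesicle endocytosis 12 of 31 fell and 3 rose, with a median of -0.33, beside backgrounds of 19.1% and 16.2%. Dnajc6, the neuronal auxilin that uncoats clathrin vesicles, had a log2 change of -2.99, and the endophilin gene Sh3gl3 rose by 1.29 while its paralog Sh3gl2 had -2.10. Rises of 0.87 and 0.55 were found for Fcho2 and Eps15, and rises of 1.05 and 0.74 for Rab3il1 and Tprgl. Without control replicates 1 and 2 in turn the list had 14 and 18 genes lower, where 5.7% and 6.41% of all genes were, and 2 higher in each case, below the 3.62% and 5.06% of all genes.

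Neuron markers fell with the neuronal presynaptic genes, while most markers of astrocytes and of the oligodendrocyte lineage rose. The part of cell types in these results was not tested. Over all genes tested 19.1% fell and 16.2% rose. Of 15 neuron markers, none of them at 0 in any library, 12 fell and 0 rose by limma (0 higher at an unadjusted p under 0.05). Their summed normalized counts were 61685 and 46435 against 21006 and 24345, and their median log2 change was -2.46. The 3 most abundant by mean count were Map2 (log2 change -0.40, adjusted p = 0.182), Mapt (-0.97, adjusted p = 0.0291) and Tubb3 (-2.99, adjusted p = 0.00111). The 33 neuronal presynaptic genes summed to 33724 and 30117 against 11121 and 11303. Divided by the summed neuron markers this was 0.547 and 0.649 against 0.529 and 0.464.

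Most astrocyte markers and most oligodendrocyte lineage markers rose. Of 12 astrocyte markers 8 rose, with sums of 99345 and 70946 against 281210 and 271405, and none fell by limma (0 lower at an unadjusted p under 0.05). Most of the FGF13Aoe sums came from Gfap (30384 and 12876 against 111437 and 135769) and Apoe (22838 and 16406 against 93708 and 65711). The 4 markers not called were Aldh1l1, S100b, Slc1a2 and Slc1a3. Of 12 oligodendrocyte lineage markers 7 rose and 0 fell (2 lower at an unadjusted p under 0.05), with sums of 24098 and 29883 against 54291 and 60246. Of 11 neural stem cell markers 5 rose and 2 fell, Nes and Top2a, with sums of 76718 and 84968 against 63177 and 78678. The backgrounds were 16.2% higher and 19.1% lower, and the falls among stem cell markers were near that background. None of the markers in these 3 lists was at 0 in any library.

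Among neuroendocrine genes, which neurons with dense-core vesicles also express, 5 of 6 tested fell and 0 rose (1 higher at an unadjusted p under 0.05), with sums of 5705 and 5900 against 3692 and 3424. Dbh was at 0 in both FGF13Aoe libraries, but had only 0.99 and 1.63 in control and was not tested. Microglia markers summed to 568 and 214 against 76.1 and 125, with 3 of 7 tested lower. Tmem119 was at 0 in both FGF13Aoe libraries, but had only 5.94 and 5.7 in control and was not tested. Mural and fibroblast markers summed to 777 and 702 against 306 and 225, with 3 of 6 tested lower. For these lists the backgrounds were 19.1% lower and 16.2% higher. Endothelial markers summed to 205 and 170 against 250.1 and 130 and those of choroid plexus and ependyma to 2216 and 748 against 648 and 606. Of the 2216 in control replicate 1, Ttr had 1613. In either of the last 2 lists 3 genes were tested and 0 were called by limma, with 0 at an unadjusted p under 0.05.

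**Figure D5:**
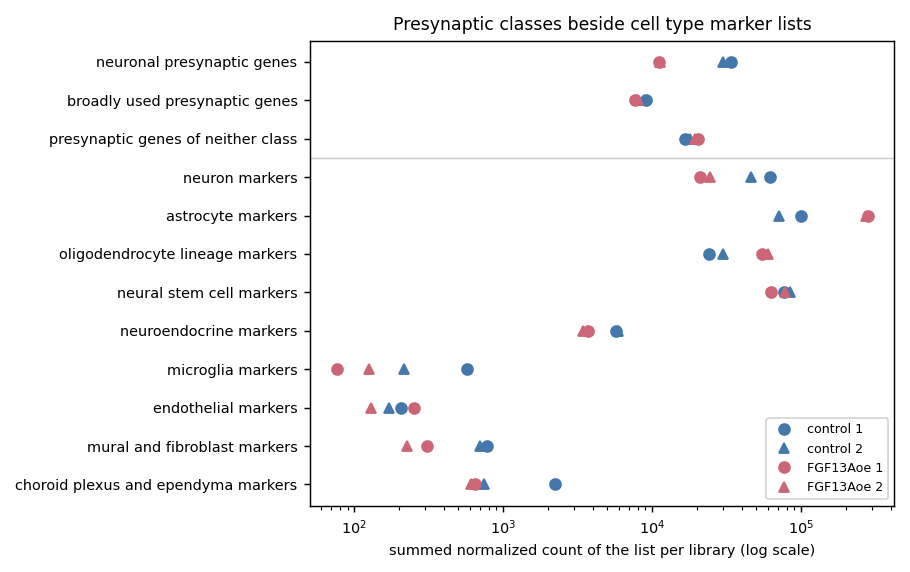
Summed normalized count (log axis) of the 3 classes of presynaptic genes and of 9 lists of cell type markers in each of 4 libraries; blue is control and red FGF13Aoe, circles replicate 1 and triangles replicate 2. The neuronal presynaptic genes and the neuron markers are both lower in FGF13Aoe, the astrocyte and oligodendrocyte lineage markers higher, and the broadly used genes span 7665 to 9140.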

How the data were processed

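Per the submitters' processing notes, reads were processed with STAR and DESeq2 on build mm10; versions, the annotation release and use of strand were not given in the sources used. The authors deposited normalized counts per library (a signal: gene reads divided by a size factor), with their log2 fold change, Wald score, p-value and adjusted p-value. All columns of single libraries were read. Division by the step that 1 read is worth gave whole numbers for 100% of values per library (tolerance 1e-06), hence the read totals. Recovery was not accepted for control replicate 1, whose step, 0.991, is close to 1. Replicates differed beyond sampling noise (chi-square over its degrees of freedom, 10.3 for control and 26.6 for FGF13Aoe). The control value used the reads of control replicate 1, although their recovery was not accepted.

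Genes with at least 10 normalized counts in at least 2 of 4 libraries (15204) were tested by limma 3.58.1 in R 4.3.3 on log2(count + 1), with an intensity trend, two-sided, with Benjamini-Hochberg adjustment over all of them and a threshold of 0.05; log2 changes understate those of low genes. The procedure was tested on simulated counts, with far fewer changed genes than were called in the data. That setting cannot give the rate of false calls here. The paralog ratio test was an exact permutation test. GENCODE annotation of GRCm38 (mm10) gave lengths, positions and overlaps, and RefSeq (GRCm38.p6) the start-site windows. The genes and lists were chosen with earlier results of these data known. All 49 genes could be named; other pathway genes were named among the 8 called genes of smallest p per direction or as paralogs, markers among the 3 of highest mean in a list, and any gene where a count of 5 or fewer needed it. Genes named outside this rule (Sh3gl2, Rab3d, Prm1, Ddx3y, Eif2s3y, Xist and markers at 0) were chosen after their values were seen. Protein identity of paralogs was not analysed here, and a further planned paralog pair is not reported here. Figures were drawn with matplotlib 3.10.9.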

Additional observations from a re-analysis of the deposited data

How the results depend on the processing

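Of the 49 genes, no called change turned its direction under any alternative, and each gene that could be tested kept its call with another pseudocount (0.5 or 5), a filter of 50 or none, TMM scaling, median centring and the authors' deposited adjusted p. The replicate block (replicate number as a factor) also left 33 lower and 3 higher; the labels do not say that numbers pair samples, and deviations of same-numbered libraries correlated at -0.103 over 15204 genes. Fewer of the 49 genes were called when a control library was left out. The spread within groups then came from the FGF13Aoe pair alone. Between replicates the SD of log2 counts was 0.414 in FGF13Aoe and 0.306 in control. The cause of the lost calls was not tested. Leaving out each library in turn gave 24 to 33 lower and 1 to 3 higher of the 49, 21 to 28 lower and 1 to 2 higher in the neuronal class, 1 to 2 lower and 0 to 1 higher in the broadly used class, 2 to 3 lower in neither class and 14 to 46 lower and 2 to 11 higher of the other pathway genes. A lone control library was assumed to vary like the others. Reads of 3 libraries, without control replicate 1, gave 25 lower and 1 higher by edgeR 4.0.16 and 26 lower and 1 higher by DESeq2 1.42.0, with 1 higher in the neuronal class and 1 lower and 0 higher in the broadly used class by either, and 16 and 15 lower and 2 higher of the other pathway genes; over all genes edgeR called 1086 lower and 537 higher and DESeq2 968 and 722. Without an intensity trend 30 were lower and 1 higher, with 1 higher in the neuronal class, 1 lower and 0 higher in the broadly used class and 25 lower of the other pathway genes; the cause was not tested. Among uncalled genes direction turned in 3: leaving out each library in turn gave log2 changes of -0.19 to 0.28 for Syt17, -0.12 to 0.024 for Vamp3 and -0.76 to 0.076 for Syt6, and Syt17 had -0.18 by DESeq2 and -0.17 by edgeR. Every paralog ratio kept its sign with other pseudocounts, in both same-numbered pairs (replicate block; for Snap25 to Snap23 -3.45 and -3.27, mean -3.36) and without each library. With 2 libraries per group, a gene without a call is not shown to be unchanged.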
